A study of Mus musculus with 6 samples.

Results

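Splicing regulators of the hnRNP and SR families were followed on the arrays as a list of 35 genes. The genes were named by family, and the list was proposed with results of these data in view, among them a higher ratio of Hnrnpl, a splicing regulator outside the list, in the mutant. The genotype values below are therefore given as a description, set against those of all probe sets. Of the 22626 probe sets tested, 99 were assigned by the platform annotation to exactly 1 of these genes, and they read 33 of the 35. Pooled RNA came from mouse embryos of 9.5 days post coitum, cut at the level of the presomitic mesoderm: 3 pools were homozygous for the neo allele of Dll3 (Dll3tm1Rbe, on a c57bl/6 background per the labels) and 3 were wild-type (c57bl/6). Dll3 codes for an unusual member of the Notch ligand family that acts in somite segmentation. Each pool was hybridised to 1 Affymetrix MOE430A array, and both genotypes were dissected at the same stage and level. The sources used here do not give how many embryos, or whether separate litters, made up a pool, so p-values measure only the spread between these pools. The tissue held all germ layers, so fewer cells of a type and less RNA per cell cannot be told apart in any value below.

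Heterogeneous nuclear ribonucleoproteins (hnRNPs) coat nascent transcripts and often repress the exons they bind, whereas SR proteins, which carry a domain rich in arginine and serine, bind exonic enhancers and recruit the spliceosome. The balance between such factors sets which exons enter an mRNA, and many of these genes control their own level through alternatively spliced, unstable transcripts. Probe sets at different places in such a gene can therefore read different transcripts, which is background and was not measured on these arrays.

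Each value is a ratio: the signal of a probe set on an array over the median that this probe set has across the 6 arrays. It sets pools side by side for a given probe set and says nothing of how abundant a transcript is. The array medians of these ratios lay between 0.985 and 1.01, and 1 of the 99 probe sets (a Khdrbs1 probe set with ratios of 0.507 to 0.525) had a median below 1, where the deposited file appears to use a floor. All 10 probe sets of 9 measured presomitic mesoderm markers had a median at 1, that is, above this floor, while Rspo3, Ripply2 and T were not analysed here. Heart muscle markers, 15 probe sets of 11 genes, had a median log2 ratio of 2.83 in mutant pool 1 and between -0.21 and -0.01 in the other 5 pools. The median log2 ratio in mutant pools 1, 2 and 3 and in wild-type pools 1, 2 and 3 was, in that order, -0.01, 0.10, -0.02, -0.02, 0.01 and 0.02 for 11 neural probe sets. For 8 endothelial probe sets it was 0.03, 0.29, -0.03, -0.08, 0.06 and -0.06. For 9 erythroid probe sets it was 0.19, -0.08, -0.05, -0.03, -0.03 and 0.04, and for 7 somite probe sets -0.01, 0.24, -0.06, -0.25, 0.03 and -0.14.

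No hnRNP or SR family probe set passed the genotype test. In limma, with adjustment over all 22626 probe sets, 0 of the 99 were called and each had an adjusted p of 0.9999, against 1 call over all probe sets (0.00442%), that of Dll3. At an unadjusted p under 0.05, 2 of the 99 were left (2.02%, against 1.16% of all probe sets), and these were Srsf5 and 1 of the 3 probe sets of Hnrnpa1. The 3 mutant values did not overlap the 3 wild-type values for 4 of the 99 (4.04%), against 5.03% of all probe sets. Of these 4, 3 were lower in the mutant (Srsf5, Hnrnpr and Celf1, 3.03% of the 99, against 1.99% of all probe sets). The other, of Srsf2, was higher (1 of the 99, against 3.05% of all probe sets). Counts this small give no direction. No exact permutation test was made, since with 3 pools on either side its smallest p is 0.1.

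Hnrnpl, the gene beside which the list was proposed, had ratios of 1.39, 1.33 and 1.26 in mutant pools 1, 2 and 3, against 0.553, 0.660 and 0.743 in wild-type pools 1, 2 and 3. Its log2 difference, mutant minus wild type, was 1.03 (SE 0.13, limma adjusted p = 0.233). None of the 99 hnRNP and SR family probe sets reached a log2 difference of even 0.2 upwards. Dll3 itself stood at 0.480, 0.476 and 0.537 in the mutant pools, against 1.46, 1.63 and 2.01 in the wild-type pools. Hnrnpul1, an hnRNP U like protein gene, is the 1 member on the chromosome of Dll3 (chromosome 7), with 57 protein-coding genes between them, against 24 between Dll3 and Hnrnpl. Its single probe set read 1.19, 0.953 and 0.995 in the mutant pools and 0.998, 1.002 and 1.19 in the wild-type pools, a log2 difference of -0.03.

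Small differences leaned downward in the mutant. By sign, 78 of the 99 probe sets were lower and 21 higher (78.8% lower, against 50.9% of all probe sets), and the median log2 difference was -0.07, against about 0.00 (-0.0021) over all probe sets. A log2 difference of -0.2 or beyond was seen for 12 probe sets (12.1%, against 6.15% of all), and 0 reached 0.2 upwards (against 3.46%). The lean over the 99 was not seen when wild-type pool 3 was left out and the remaining pools counted equally. Without that pool 42 of the 99 were lower, against 47.2% of all probe sets, and the median log2 difference was 0.02. At -0.2 or beyond there were then 6 probe sets (6.06%, against 5.26% of all) and at 0.2 or above 10 (10.1%, against 7.61%). With array weights 67 were lower, against 48.9% of all probe sets. That fit gave wild-type pool 3 a weight of 0.137 and wild-type pool 2 a weight of 83.9. It thus set the mutant pools mainly against wild-type pool 2, with little part for wild-type pools 1 (weight 0.369) and 3. The lean was still seen in that fit, at a median log2 difference of -0.05, with wild-type pool 3 counting for little. Without wild-type pool 1 the count lower was 86, against 51.7% of all probe sets, the median was -0.15, and 38 probe sets were at -0.2 or beyond (38.4%, against 14.3% of all). Probe sets of 1 gene share transcripts and all 99 share the same 6 arrays, so these counts are a description and no test was run on them.

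**Figure D1:**
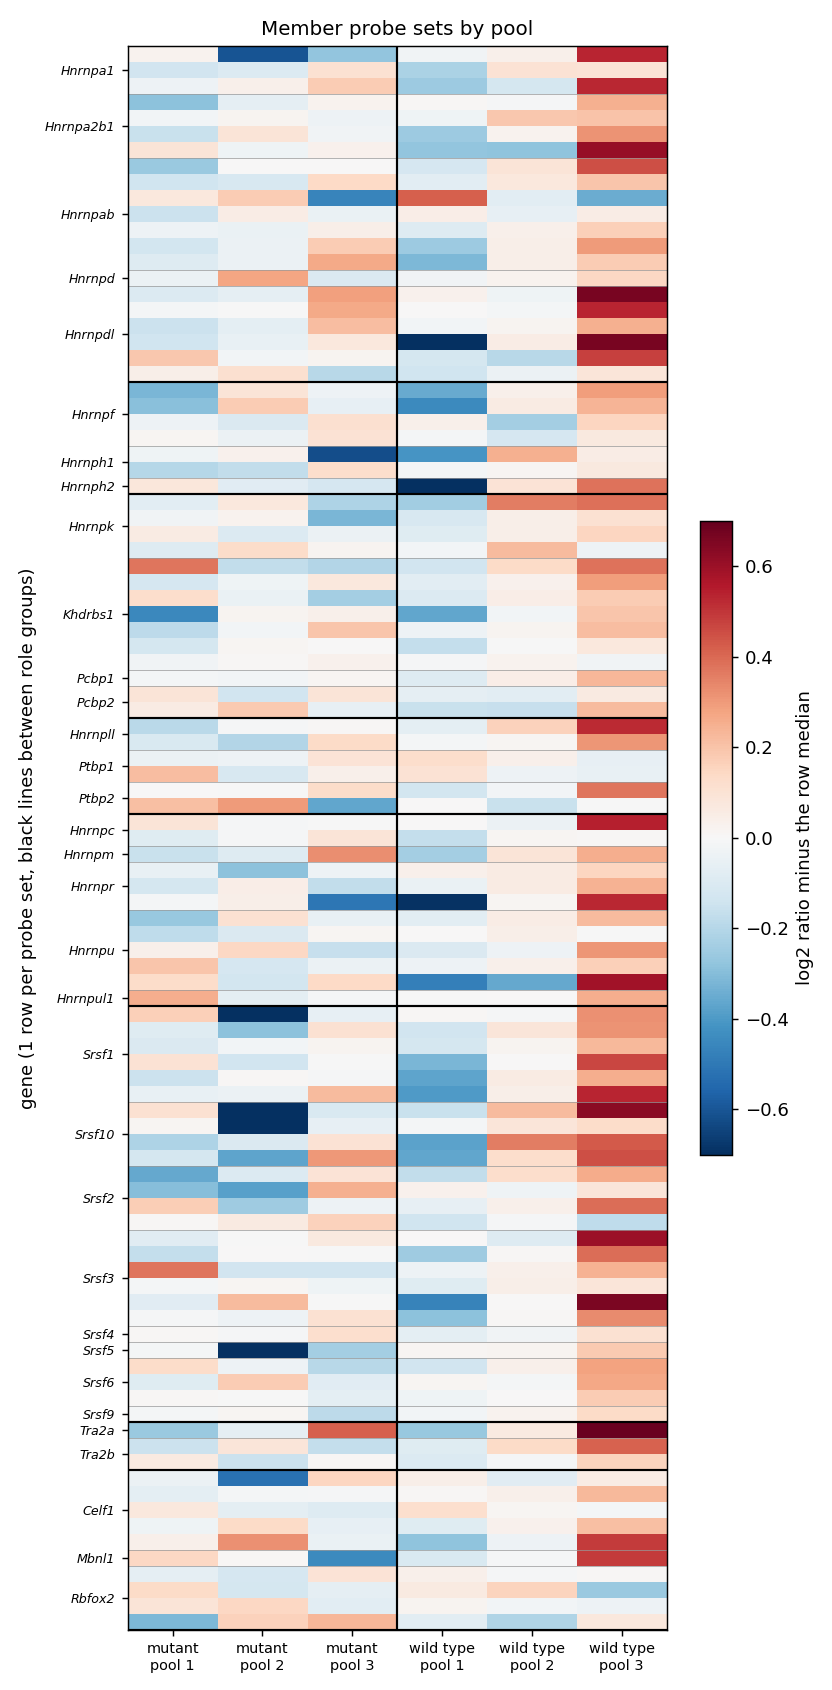
Log2 ratio of each of the 99 member probe sets (rows, grouped by gene and role) in the 3 mutant and 3 wild-type pools (columns), minus the median of the row, with colours saturating at 0.7 in either direction. The column of wild-type pool 3 is mostly red, holding the highest value of 70 probe sets, and several rows of SR proteins are dark blue in mutant pool 2.

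Wild-type pool 3 held the highest value for 70 of the 99 probe sets (70.7%, against 34% of all probe sets), and wild-type pool 1 held the lowest for 31 (31.3%, against 21.1%). The pool medians of the 99 log2 ratios were -0.04, -0.03 and about 0.00 (-0.0029) in mutant pools 1, 2 and 3, against -0.08, 0.02 and 0.23 in wild-type pools 1, 2 and 3. The 3 mutant medians thus lay between those of wild-type pools 1 and 2, and the spread among wild-type pools was wider than the gap between genotypes. Ratios above 1.4 occurred 17 times in wild-type pool 3 (17.2%, against 6.09% of all probe sets) and 0 times in each of the other pools. In the same pools, in that order, the presomitic mesoderm markers had medians of -0.11, -0.24 and -0.02 in the mutant and 0.12, 0.02 and 0.20 in the wild type, so wild-type pool 3 was highest there too. All 10 of these marker probe sets were lower in the mutant by sign (against 50.9% of all probe sets), 3 without overlap (against 1.99%), with a median log2 difference of -0.23. The 9 marker genes were Tbx6, Msgn1, Hes7, Dll1, Lfng, Mesp2, Cyp26a1, Fgf8 and Wnt3a. Some of them belong to the Notch pathway, so fewer presomitic cells and a change in these genes cannot be told apart here. The 5′ control probe set of 18S ribosomal RNA read 0.377, 1.58 and 0.669 in the mutant pools and 2.70, 1.33 and 0.475 in the wild-type pools. The part of either in the pool pattern of the splicing factors was not tested.

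**Figure D2:**
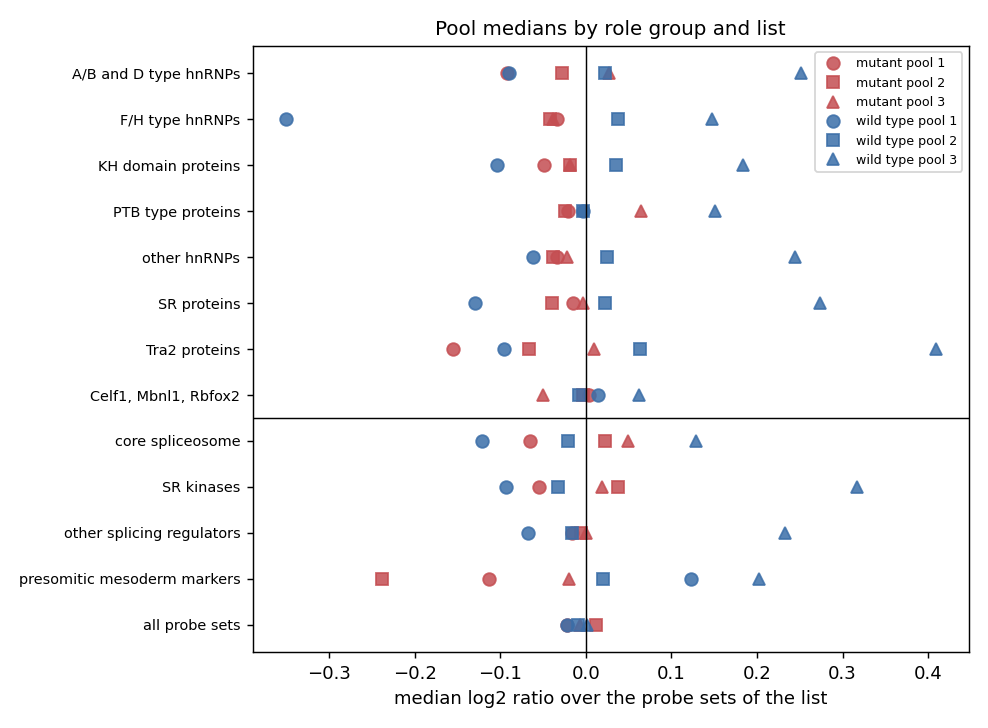
Median log2 ratio of each role group and of comparison lists (rows) in the 3 mutant pools (red) and 3 wild-type pools (blue), with pool 1 as circles, pool 2 as squares and pool 3 as triangles. Wild-type pool 3 is the rightmost point in all 8 role groups, reaching 0.41 for the Tra2 proteins, while over all probe sets the 6 pools lie close to 0.

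SR proteins were the largest role group. Of 26 probe sets for 8 genes (Srsf7 was not analysed here), 23 had a negative log2 difference, with wild-type pool 3 highest for 22. Their median log2 difference was -0.10, and 0.01 without wild-type pool 3. Srsf5, an SR protein first cloned as a gene induced in regenerating rat liver, had a single probe set with ratios of 0.989, 0.546 and 0.848 in mutant pools 1, 2 and 3, against 1.01, 1.01 and 1.13 in wild-type pools 1, 2 and 3. All mutant values lay below all wild-type values, by little in pool 1 and by most in pool 2. The mean was 0.794 ± 0.226 in the mutant and 1.05 ± 0.0704 in the wild type (SD, n = 3 each), a log2 difference of -0.45 (SE 0.20, limma adjusted p = 0.9999), and without mutant pool 2 it was -0.20.

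Srsf10, an SR related splicing factor that acts as a repressor when dephosphorylated, was lower by all 4 of its probe sets. Probe set 1418527_a_at read 1.07, 0.614 and 0.928 in the mutant pools, against 0.895, 1.17 and 1.55 in the wild-type pools, and 1449121_at read 1.01, 0.615 and 0.960 against 0.989, 1.06 and 1.09. Both were lowest in mutant pool 2 and overlapped between genotypes, with log2 differences of -0.47 (-0.23 without mutant pool 2) and -0.31 (-0.09 without it). Without wild-type pool 1 these were -0.66 and -0.36. Probe set 1423982_at read 0.858, 0.931 and 1.07 in the mutant pools and 0.770, 1.28 and 1.35 in the wild-type pools. Probe set 1418526_at read 0.915, 0.772 and 1.23 in the mutant pools and 0.773, 1.09 and 1.36 in the wild-type pools. In both of these wild-type pool 1 was at or near the lowest of the 6 pools and wild-type pool 3 was the highest, and the log2 differences were -0.21, which was -0.06 without wild-type pool 3, and -0.13, which turned to 0.02 when mutant pool 2 was left out.

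Srsf1, the founding SR protein and a regulator of many exon choices, had 6 probe sets, all lower by sign but over a wide range. Probe set 1452430_s_at read 1.12, 0.581 and 0.961 in the mutant pools, against 1.004, 0.996 and 1.25 in the wild-type pools, a log2 difference of -0.33 that was -0.05 without mutant pool 2. Probe set 1430982_at read 0.942, 0.819 and 1.08 in the mutant pools and 0.911, 1.06 and 1.24 in the wild-type pools (log2 difference -0.18). The other 4 probe sets of Srsf1 did not share the low value in mutant pool 2. Of these, 1428099_a_at read 1.07, 0.910 and 0.998 in the mutant pools and 0.801, 1.002 and 1.38 in the wild-type pools (-0.06), and 1428100_at read 0.963, 0.972 and 1.17 against 0.760, 1.03 and 1.45 (-0.02). Probe set 1434972_x_at read 0.902, 1.01 and 0.994 in the mutant pools and 0.775, 1.04 and 1.19 in the wild-type pools (-0.03), and 1453722_s_at read 0.933, 0.987 and 1.01 against 0.917, 1.02 and 1.17 (-0.07). In all 4 the lowest pool was wild-type pool 1 and the highest was wild-type pool 3, with the mutant pools between.

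Srsf2, which binds exonic enhancers and also acts in transcription, was the gene whose probe sets took opposite directions most clearly. Probe set 1427816_at was higher in the mutant without overlap, at 1.01, 1.05 and 1.12 in the mutant pools against 0.908, 0.994 and 0.883 in the wild-type pools (log2 difference 0.19, SE 0.11). The other 3 were lower by sign with overlap. Probe set 1427504_s_at read 0.778, 0.935 and 1.07 in the mutant pools and 0.885, 1.09 and 1.19 in the wild-type pools (-0.19), and 1415807_s_at read 0.812, 0.768 and 1.19 against 1.02, 0.978 and 1.06 (-0.17). Probe set 1452439_s_at read 1.13, 0.841 and 0.974 in the mutant pools and 0.961, 1.03 and 1.31 in the wild-type pools (-0.16). Where wild-type pool 3 was the highest pool for 2 of these, it was the lowest for 1427816_at. The remaining SR protein genes differed less: the 6 probe sets of Srsf3 ran from -0.18 to about 0.00 (0.0041), the 3 of Srsf6 from -0.09 to -0.07, and the single ones of Srsf4 and Srsf9 gave 0.03 and -0.11.

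**Figure D3:**
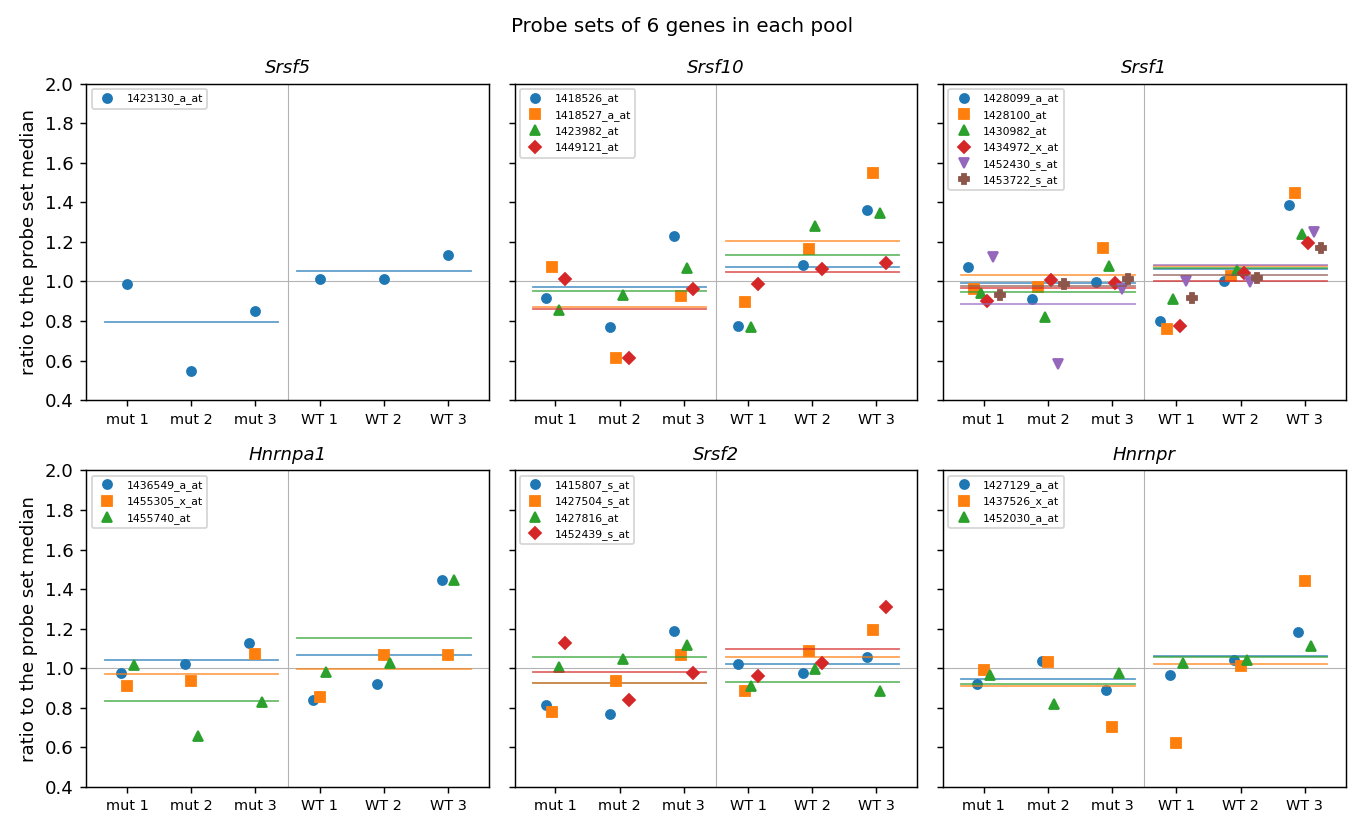
Ratio to the probe set median (vertical axis) in each pool for all probe sets of Srsf5, Srsf10, Srsf1, Hnrnpa1, Srsf2 and Hnrnpr, with the 3 mutant pools on the left, the 3 wild-type pools on the right, and horizontal lines at the genotype means. Mutant pool 2 falls to 0.546 for Srsf5, 0.581 for 1 probe set of Srsf1 and 0.614 and 0.615 for 2 of Srsf10, while other probe sets of the same genes stay nearer 1.

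Ratios below 0.7 in mutant pool 2 occurred for 6 of the 98 member probe sets whose median was 1 (6.12%, against 2.02% of all such probe sets). They were those of Srsf5, Srsf10 (2 of its 4), Srsf1, Hnrnpa1 and Celf1. In the other pools the count was 0 in mutant pool 1, 1 in mutant pool 3 (1.02%, against 0.252% of all), 3 in wild-type pool 1 (3.06%, against 1.05%), and 0 in wild-type pools 2 and 3. Mutant pool 2 also had the highest 3′ over 5′ ratio of the Gapdh control probe sets, at 1.13, against 1.03 and 0.970 in mutant pools 1 and 3 and 0.968 to 0.987 in the wild-type pools. For the transferrin receptor controls it was 0.973, 1.11 and 1.03 in the mutant pools, against 1.06, 1.03 and 0.917 in the wild-type pools, again highest in mutant pool 2. The same ratio of the beta-actin controls was 0.956, 1.10 and 0.924 in the mutant pools, against 0.966, 1 and 1.11 in the wild-type pools. These ratios compare pools and are no absolute measure of RNA integrity, and their part in the low values of mutant pool 2 was not tested.

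The promoters of the 4 genes among SR proteins and Hnrnpa1 with a probe set below 0.7 in mutant pool 2 are shown so that their letters can be compared. Other probe sets of Srsf1, Srsf10 and Hnrnpa1 were not below 0.7 there, and the promoter of Celf1, a switch regulator, was left out. They are RefSeq promoters of build GRCm38.p6, 300 bases around the start of each gene, printed 5′ to 3′ along the gene, with CCAAT (on either strand) in capitals: Hnrnpa1 at chr15:103240147-103240446 on the plus strand, Srsf1 at chr11:88047123-88047422 on the plus strand, Srsf10 at chr4:135855821-135856120 on the plus strand and Srsf5 at chr12:80945249-80945548 on the plus strand.
Hnrnpa1: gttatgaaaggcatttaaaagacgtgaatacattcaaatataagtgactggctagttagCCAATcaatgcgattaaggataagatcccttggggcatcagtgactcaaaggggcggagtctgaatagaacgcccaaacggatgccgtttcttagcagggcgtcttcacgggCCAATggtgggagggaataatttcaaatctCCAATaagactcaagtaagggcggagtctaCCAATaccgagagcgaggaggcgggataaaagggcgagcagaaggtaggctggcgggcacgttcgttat
Srsf1: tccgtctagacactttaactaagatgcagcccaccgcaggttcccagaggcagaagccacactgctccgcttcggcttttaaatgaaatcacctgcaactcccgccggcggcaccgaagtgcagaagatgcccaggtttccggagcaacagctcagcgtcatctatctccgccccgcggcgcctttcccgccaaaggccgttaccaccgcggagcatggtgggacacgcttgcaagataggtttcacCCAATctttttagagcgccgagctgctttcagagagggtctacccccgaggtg
Srsf10: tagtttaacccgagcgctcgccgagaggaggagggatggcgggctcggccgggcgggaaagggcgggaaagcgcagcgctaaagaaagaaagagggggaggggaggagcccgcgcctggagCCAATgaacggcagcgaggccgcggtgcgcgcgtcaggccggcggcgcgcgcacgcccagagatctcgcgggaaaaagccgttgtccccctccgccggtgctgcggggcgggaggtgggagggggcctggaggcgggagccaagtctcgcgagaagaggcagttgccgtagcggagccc
Srsf5: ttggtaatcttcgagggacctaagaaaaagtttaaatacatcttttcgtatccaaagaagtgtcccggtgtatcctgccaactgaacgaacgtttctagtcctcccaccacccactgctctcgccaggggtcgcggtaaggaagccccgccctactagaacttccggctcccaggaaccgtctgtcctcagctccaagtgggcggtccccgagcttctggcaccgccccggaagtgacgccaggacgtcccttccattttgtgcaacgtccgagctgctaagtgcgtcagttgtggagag
The count of CCAAT matches was 4 for Hnrnpa1, 1 each for Srsf1 and Srsf10, and 0 for Srsf5, so no such match was common to all 4. Over the 45 promoters that RefSeq lists for 32 of the 35 genes, 22 held CCAAT on either strand (48.9%, against 37.4% of 32851 promoters of the same length). The core letters recognised by RBPJ, the DNA-binding partner of Notch (TGGGAA, either strand, which can share letters with CCAAT), were in 5 of the 45 (11.1%, against 25.6%), Srsf1 among them. TATAAA, the TATA box, on either strand, was in 5 (11.1%, against 13.6%), and the median number of CG dinucleotides was 32, against 7 in all promoters. The motif shares were not adjusted for this difference in CG content, so they do not show that a motif is rarer or more frequent than the base composition gives. All of these are matches of letters and do not show binding.

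The A/B and D type hnRNPs, abundant exon silencers with paired RNA recognition motifs, were read by 21 probe sets for 5 genes, of which 16 were lower by sign (median log2 difference -0.06, and 0.04 without wild-type pool 3). Hnrnpa1, the best known antagonist of SR proteins, showed the widest range between probe sets of any member, 0.47. Probe set 1455740_at read 1.02, 0.658 and 0.827 in the mutant pools, against 0.983, 1.02 and 1.45 in the wild-type pools, a log2 difference of -0.46 (SE 0.19, limma adjusted p = 0.9999) that shrank to -0.31 when mutant pool 2 was left out and to -0.29 when wild-type pool 3 was. Probe set 1436549_a_at, designed on the same sequence record, read 0.977, 1.02 and 1.13 in the mutant pools and 0.838, 0.918 and 1.44 in the wild-type pools (0.01). Probe set 1455305_x_at read 0.910, 0.935 and 1.07 in the mutant pools and 0.856, 1.07 and 1.07 in the wild-type pools (-0.03). Genotypes overlapped in all 3 of these probe sets. A further 3 that the annotation shares between Hnrnpa1 and 3 related loci, not counted as members, gave -0.11, -0.09 and -0.10.

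Hnrnpab, a relative of the A/B type that binds AU-rich RNA, had 7 probe sets, 6 of them lower by sign. Probe set 1431349_at read 0.835, 1 and 1 in the mutant pools, against 0.921, 1.06 and 1.37 in the wild-type pools (log2 difference -0.23, and -0.07 without wild-type pool 3). At the other end 1455855_x_at read 0.938, 0.973 and 1.203 in the mutant pools and 0.803, 1.03 and 1.13 in the wild-type pools (0.08). Probe set 1426114_at ran against the pool pattern of its gene, with 1.05, 1.13 and 0.724 in the mutant pools and 1.34, 0.949 and 0.784 in the wild-type pools (-0.07). The remaining 4 lay between. Probe set 1415914_at read 0.975, 0.969 and 1.03 in the mutant pools and 0.940, 1.03 and 1.12 in the wild-type pools (-0.05), and 1448144_at read 0.913, 0.971 and 1.13 against 0.839, 1.03 and 1.23 (-0.03). Probe set 1453849_s_at read 0.905, 0.924 and 1.10 in the mutant pools and 0.948, 1.05 and 1.14 in the wild-type pools (-0.10), and 1459880_at read 0.901, 1.04 and 0.969 against 1.03, 0.961 and 1.04 (-0.06). Genotypes overlapped in all 7. Of the other members of this type, the 4 probe sets of Hnrnpa2b1 ran from -0.19 to 0.01, the 6 of Hnrnpdl from -0.18 to 0.02, and Hnrnpd gave about 0.00 (-0.0030). Hnrnpa3 had no probe set of its own here, and the 4 that the annotation shares between it and 1 related locus gave -0.18 to 0.01.

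The F/H type hnRNPs, which bind runs of guanine, had 7 probe sets, 4 lower and 3 higher by sign (median log2 difference about -0.01). Hnrnph1 was lowest by 1437267_x_at, with 0.979, 1.02 and 0.649 in the mutant pools against 0.751, 1.19 and 1.04 in the wild-type pools (log2 difference -0.17). It turned to 0.04 when mutant pool 3 was left out and shrank to -0.03 when wild-type pool 2 was, and its other probe set gave -0.11. Hnrnph2, its X-linked relative, read 1.06, 0.944 and 0.921 in the mutant pools and 0.598, 1.07 and 1.30 in the wild-type pools (0.05). The wild-type pools of Hnrnph2 ran from 0.598 to 1.30, with all mutant pools inside that span. The 4 probe sets of Hnrnpf ran from -0.08 to 0.04.

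Members with KH domains, an RNA-binding fold that prefers pyrimidine-rich or AU-rich stretches, had 14 probe sets, 11 of them lower by sign (median -0.07, and about 0.00 (-0.0012) without wild-type pool 3). Hnrnpk, which binds C-rich RNA and DNA, was lowest by 1460547_a_at, with 0.949, 1.05 and 0.859 in the mutant pools against 0.844, 1.28 and 1.31 in the wild-type pools. This log2 difference of -0.24 was -0.13 without wild-type pool 3, but -0.45 without wild-type pool 1, and its other 3 probe sets gave -0.12 to -0.04. Pcbp2, a C-rich RNA binding protein, was the 1 gene with several probe sets that were all higher by sign. Its probe set 1435881_at read 1.04, 1.13 and 0.959 in the mutant pools, against 0.896, 0.894 and 1.17 in the wild-type pools (0.09), and the other gave 0.04. Pcbp1 gave -0.07, and the 7 probe sets of Khdrbs1, also known as Sam68, ran from -0.13 to 0.01.

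The polypyrimidine tract binding type had 6 probe sets, 4 of them lower by sign (median log2 difference -0.03, and -0.02 without wild-type pool 3). Hnrnpll, a relative of Hnrnpl that is known to switch exons in lymphocytes, was lower by both of its probe sets. Probe set 1427144_at read 0.878, 0.993 and 1.01 in the mutant pools, against 0.953, 1.12 and 1.44 in the wild-type pools, a log2 difference of -0.27 that was -0.11 without wild-type pool 3, and the other probe set gave -0.16. The sign was thus opposite to that of Hnrnpl, with genotypes overlapping. Ptbp2, the form of the tract binding protein that is prominent in neurons, read 1.16, 1.23 and 0.778 in the mutant pools by 1423471_at. In the wild-type pools Ptbp2 read 1.003, 0.899 and 0.997 (0.10, -0.03 without mutant pool 2 and 0.31 without mutant pool 3). Its other probe set gave -0.03, and those of Ptbp1, the form of most non-neuronal cells, gave -0.03 and 0.04.

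Among the other hnRNPs, 10 of 12 probe sets were lower by sign (median -0.08, and 0.05 without wild-type pool 3). Hnrnpr, which is associated with transport of RNA in motor neurons, was lower by all 3 of its probe sets. Probe set 1452030_a_at did not overlap, at 0.964, 0.818 and 0.975 in the mutant pools against 1.03, 1.04 and 1.11 in the wild-type pools (log2 difference -0.21, SE 0.12, limma adjusted p = 0.9999, and -0.13 without mutant pool 2). Its others gave -0.17 and -0.11 with overlap. Hnrnpu, a scaffold protein of nuclear chromatin, had 5 probe sets of both signs. Probe set 1434390_at read 1.09, 0.910 and 1.10 in the mutant pools and 0.714, 0.778 and 1.495 in the wild-type pools (0.13, and -0.07 without wild-type pool 1), while 1450849_at read 0.832, 1.07 and 0.963 against 0.951, 1.04 and 1.17 (-0.14). Probe set 1434391_at, designed on the same record as 1434390_at, read 1.15, 0.920 and 0.970 in the mutant pools and 0.975, 1.03 and 1.12 in the wild-type pools (-0.05). Probe set 1423051_at read 0.885, 0.933 and 1.01 in the mutant pools and 1.001, 1.03 and 0.999 in the wild-type pools (-0.10), and 1423050_s_at read 1.02, 1.11 and 0.895 against 0.932, 0.977 and 1.24 (-0.05). All 5 overlapped between genotypes. Hnrnpc gave -0.14 and 0.05 by its probe sets, and Hnrnpm gave about -0.01.

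Tra2a and Tra2b, SR like activators related to the Drosophila sex determination gene transformer 2, had 3 probe sets, all lower by sign and all highest in wild-type pool 3 (median log2 difference -0.13, and 0.03 without that pool). Tra2b read 0.898, 1.06 and 0.890 in the mutant pools by 1427432_a_at, against 0.942, 1.09 and 1.33 in the wild-type pools, a log2 difference of -0.23 that was -0.10 without wild-type pool 3. By 1419543_a_at it read 1.04, 0.902 and 1.01 in the mutant pools and 0.936, 0.993 and 1.12 in the wild-type pools (-0.04). Tra2a gave -0.13. The switch regulators Celf1, Mbnl1 and Rbfox2, which drive changes in splicing during muscle and neural development, had 10 probe sets, 7 lower by sign, and their median log2 difference was -0.04 both with and without wild-type pool 3. Mbnl1 read 1.11, 1.01 and 0.734 in the mutant pools, against 0.928, 0.995 and 1.402 in the wild-type pools, and its log2 difference of -0.22 shrank to -0.04 when wild-type pool 3 was left out and to -0.05 when mutant pool 3 was. Rbfox2 read 0.804, 1.12 and 1.17 in the mutant pools by 1418245_a_at and 0.949, 0.863 and 1.05 in the wild-type pools (0.10), and its 4 probe sets ran from -0.04 to 0.10. Celf1 had 5 probe sets from -0.14 to 0.05, and 1427413_a_at among them did not overlap, at 0.954, 0.991 and 0.994 in the mutant pools against 1.01, 1.02 and 1.17 in the wild-type pools (-0.12).

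**Figure D4:**
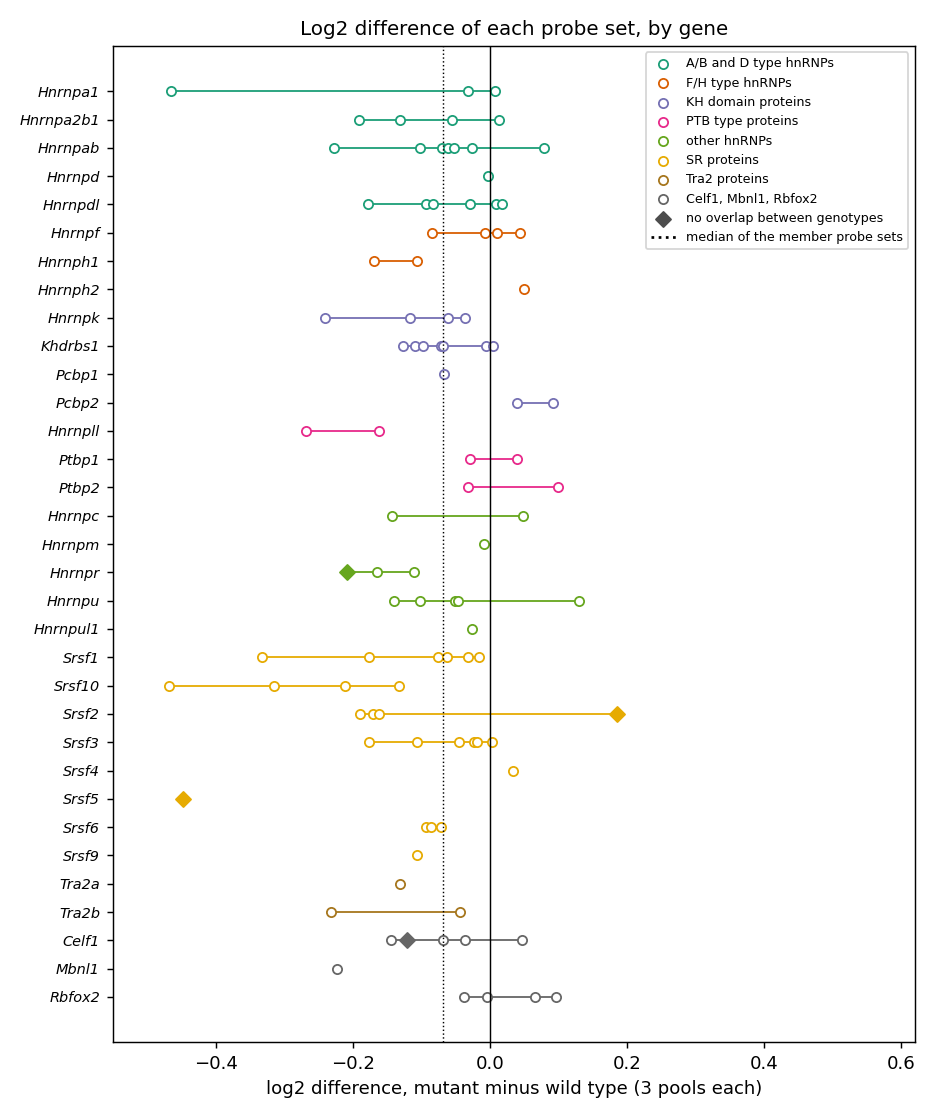
Log2 difference, mutant minus wild type, of every probe set (points) of the 33 measured genes (rows, coloured by role), with a line joining the probe sets of a gene and diamonds where the genotypes did not overlap. Most points lie left of 0, around the dotted median of -0.07, and Hnrnpa1 and Srsf2 span the widest ranges, 0.47 and 0.38.

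Disagreement between probe sets of a gene was then tested directly. For each of 4956 genes with several probe sets, each probe set was set against the mean of the others of its gene within each pool, and these contrasts were compared between genotypes. Of 9886 contrasts limma called 0 (0%), and 125 had an unadjusted p under 0.05 (1.26%). The 23 hnRNP and SR family genes with several probe sets gave 82 contrasts, of which 0 were called and 2 had an unadjusted p under 0.05 (2.44%). These were 1455740_at of Hnrnpa1, lower relative to its gene by 0.45 on the log2 scale (contrast -0.45, SE 0.18, adjusted p = 0.9999), and 1427816_at of Srsf2, higher by 0.36 (SE 0.15, adjusted p = 0.9999). Genotypes did not overlap for 2 of the 82 contrasts (2.44%, against 5.63% of all), 1427816_at of Srsf2 and 1427413_a_at of Celf1. With limma's diffSplice, which treats each probe set as a separate exon, 0 of 12943 probe sets were called and the smallest adjusted p of a member was 0.9999.

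By sign, probe sets disagreed for 14 of the 23 genes (60.9%, against 52.3% of all genes with several probe sets), were all lower for 8 and all higher for 1. At equal numbers of probe sets the shares with opposite signs were 42.9% of members and 42.5% of all genes with 2 probe sets, 55.6% and 65.8% with 3 to 4, and 85.7% and 82.4% with 5 or more. The 10 genes with a single probe set were lower in 8 cases and higher in 2. The median range between the probe sets of a gene was 0.19, against 0.13 over all genes, but the members carried more probe sets. Among genes with 2 probe sets the median range was 0.11 for 7 members and 0.09 for all, with 3 to 4 it was 0.20 for 9 members and 0.18 for all, and with 5 or more it was 0.20 for 7 members and 0.25 for all. A range over 0.25 was seen for 6 of the 23 members (26.1%, against 17.8% of all), the genes described above with every probe set. By number of probe sets the share was 0% of members and 9.88% of all genes with 2, 33.3% and 27.8% with 3 to 4, and 42.9% and 48.7% with 5 or more. Pairs designed on the same sequence record differed by a median of 0.11 (30 pairs of 15 genes, up to 0.47), and pairs on different records by 0.07 (102 pairs of 15 genes, up to 0.38).

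By the kind of probe set, as its name marks it, the median log2 differences lay between -0.05 and -0.10. Plain probe sets (47, ending in _at) had a median log2 difference of -0.05, those for alternative transcripts of 1 gene (27, ending in _a_at) -0.08, those shared by several transcripts (12, ending in _s_at) -0.10, and those with probes that may cross-hybridise (13, ending in _x_at) -0.07. The last 2 kinds bear on hnRNP genes, which have many processed pseudogenes, and they made up 12.1% and 13.1% of the member probe sets, against 6.49% and 6.68% of all. For them, signal of a paralog or pseudogene cannot be told apart from that of the named gene. Lower by sign were 36 of 47 _at, 19 of 27 _a_at, 11 of 12 _s_at and 12 of 13 _x_at probe sets. Over all probe sets these counts were 7648 of 15605, 2240 of 4040, 795 of 1469 and 823 of 1512.

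The rest of the splicing machinery gave no call either. Core spliceosome components had 70 probe sets for 32 of 39 listed genes, 38 lower and 32 higher by sign (median log2 difference -0.02). Snrpd3, a Sm ring protein of the small nuclear particles, read 0.915, 0.729 and 1.05 in the mutant pools against 0.953, 1.27 and 1.32 in the wild-type pools (log2 difference -0.40). Sf1, which recognises the branch point, read 1.37, 1.16 and 0.974 in the mutant pools and 0.903, 0.917 and 1.03 in the wild-type pools (0.29). Sf3a3, a subunit of the U2 particle, read 0.824, 0.542 and 1.01 in the mutant pools against 1.01, 0.988 and 1.22 in the wild-type pools (log2 difference -0.48, and -0.22 without mutant pool 2). The kinases that phosphorylate SR proteins had 19 probe sets for 8 genes, 13 lower by sign (median -0.11, 0.01 without wild-type pool 3 and -0.23 without wild-type pool 1). Among them Clk4 read 0.975, 0.692 and 1.03 in the mutant pools against 1.07, 0.950 and 1.25 in the wild-type pools (-0.29, and -0.11 without mutant pool 2). Prpf4b read 0.864, 0.738 and 1.04 in the mutant pools and 1.05, 0.958 and 1.12 in the wild-type pools (-0.25), and Dyrk1a read 0.997, 0.781 and 1.003 against 1.07, 0.992 and 1.08 (-0.18). These 3 have the smallest p of the list and were lowest in mutant pool 2, whereas over all 19 kinase probe sets the median log2 ratio of that pool was 0.04, above mutant pools 1 and 3 (-0.05 and 0.02). Other splicing regulators had 81 probe sets for 24 of 29 genes, 59 lower by sign (median -0.06, 0.04 without wild-type pool 3 and -0.13 without wild-type pool 1). Rbm39, a relative of the U2 auxiliary factor, read 1, 0.658 and 1 in the mutant pools against 1.06, 0.963 and 1.38 in the wild-type pools (-0.36, and -0.16 without mutant pool 2). Fubp1 read 0.713, 0.784 and 0.753 in the mutant pools and 0.928, 0.774 and 1.11 in the wild-type pools (-0.31, and -0.18 without wild-type pool 3). Its median of 0.779 lies below 1, so its values too are relative to the apparent floor. Srrm1, a coactivator with an SR domain, read 1.09, 1.03 and 1 against 0.882, 0.818 and 1 (0.21). In all 3 lists 0 probe sets passed in either direction, and wild-type pool 3 had the highest pool median (0.13, 0.32 and 0.23). At an unadjusted p under 0.05 there were 2 of 70, 0 of 19 and 0 of 81, against 1.16% of all probe sets. By sign, 50.9% of all probe sets were lower. The genes named have the smallest p in their list. In the same order, log2 differences ran from -0.77 to 0.29, from -0.29 to 0.12 and from -0.49 to 0.21.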

How the data were processed

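RNA from 3 mutant and 3 wild-type pools was measured on 6 Affymetrix MOE430A arrays. What the authors deposited is a linear ratio of signal to the median of the probe set across arrays, or to an apparent floor for 1611 probe sets with lower medians, as read from the values. The submitters' processing notes list RMA and MAS5 but give neither a role, so summarisation, background and normalization between arrays are not given in the sources used here. No brightness can be read, and the number of arrays limits the precision. Tests left out 64 control probe sets.

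Genotype was the only term of a two-sided test on log2 ratios in limma 3.58.1 (lmFit, eBayes, R 4.3.3). P-values were adjusted by Benjamini-Hochberg over 22626 probe sets or over 9886 contrasts within genes, at a threshold of 0.05. The test was tried on simulated data with independent values for each probe set and no effect shared by a pool. That trial therefore does not cover the shifts of whole pools seen here. Probe sets were named by the platform annotation, where 20380 have 1 symbol, updated through RefSeq (GRCm38.p6). Values in every pool are given for member probe sets without overlap and a log2 difference of at least 0.2 in size, for the extremes of each role group, and for all probe sets of the 6 genes with the widest range. The list also names up to 3 genes by smallest p for each other splicing list. Probe sets 1427413_a_at of Celf1 and that of Hnrnpul1 were named after their values were seen, as were the bounds of 0.7, 1.4 and 0.25 and the promoters and motifs shown. The members and lists were chosen with earlier results of these data known. Alternatives were quantile normalization, centring of arrays, log2(ratio + 1), a filter on medians below 1, a variance trend, array weights, the replicate number as a block, diffSplice, and leaving out each pool. Python 3.11.15 and matplotlib 3.10.9 drew the plots.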

Additional observations from a re-analysis of the deposited data

How the results depend on the processing

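Over all alternatives run, 0 hnRNP and SR family probe sets and 0 contrasts within genes were called. The number of calls over all probe sets was 2 with quantile normalization and 4 with array weights, a fit dominated by wild-type pool 2 (weight 83.9, against 0.137 to 0.756 for the other pools), and 0 to 1 when a pool was left out (0 without any of the mutant pools or wild-type pool 2). With 1 pool left out, genotypes overlap less by construction, over all probe sets as well. Without mutant pools 1, 2 and 3 in turn, 13, 9 and 15 of the 99 did not overlap (12.7%, 10.6% and 13.1% of all). Without wild-type pools 1, 2 and 3 in turn, 24, 4 and 11 did not (15.3%, 10.6% and 18% of all). Genes with opposite signs then numbered 6 to 15, lowest without wild-type pool 1, and probe sets lower by sign 42 to 86. The median log2 difference of the 99 ran from -0.15 without wild-type pool 1 to 0.02 without wild-type pool 3, and it was -0.05 with quantile normalization, where 69 were lower by sign, and -0.05 with array weights, where 67 were. The sign counts under alternatives were added after seeing the data. Of 41 probe sets with values given by rule, 20 took the opposite sign under at least 1 alternative, 6 of them other than by leaving out a pool. The cause of these changes was not tested. With the replicate number as a block the counts were 1 over all probe sets and 0 among members. Correlations of the deviations of same-numbered pools were 0.21, 0.02 and 0.17 for numbers 1, 2 and 3. Numbers 1 and 3 each correlated best with their own number. Crosswise, mutant pool 1 with wild-type pool 3 gave -0.21 and mutant pool 3 with wild-type pool 1 gave -0.15. Mutant pool 2 correlated best with wild-type pool 3 (0.05). The main fit did not take the numbers to pair the pools, and whether they do was not settled.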
